A study of Bos taurus with 8 samples.

Results

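The 52 genes described here encode nuclear subunits of the 5 enzyme complexes of oxidative phosphorylation, 26 of complex I, 4 of complex II, 6 of complex III, 8 of complex IV and 8 of complex V. They were chosen by symbol and not by a rule on their values, but with earlier results of these data known. All 52 were on the array with 129 probes of 43653 noncontrol probes, which carry 25325 gene names in the files. For each gene the brightest tested probe was used, and 124 member probes were among the 31108 probes tested.

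Endometrium, the inner lining of the uterus, was examined in 8 cows (Bos taurus), with 1 array per cow. In 4 cows each uterine horn had received 25 mL without methylglyoxal (0 mM) on day 1 after standing oestrus on day 0, and in 4 cows the same volume with 5 mM methylglyoxal (MGO), a reactive dicarbonyl that cells form as a by-product of glycolysis. On day 7 a biopsy was taken, in both groups, from the horn ipsilateral to the corpus luteum. Breed, age and the carrier fluid of the injection were not given in the sources used here.

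Oxidative phosphorylation takes place in the inner mitochondrial membrane. Complex I takes electrons from NADH and complex II takes them from succinate. Ubiquinone, complex III, cytochrome c and complex IV pass them on to oxygen, and complexes I, III and IV pump protons that drive ATP synthesis by complex V. Most subunits are encoded in the nucleus and a small core in mitochondrial DNA, so that both sets of transcripts are needed to build complexes I, III, IV and V.

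The array read these transcripts with probes of 60 bases. In 4 genes 1 probe varied over the 8 arrays (SD of log2 signal over 1) while another probe of the gene varied less. Sequences of probes of these 4 genes are shown because their values are compared below. Positions are those in the array files (build HGSC Btau_3.1), and whether they lie in an exon or a UTR was not determined here. For NDUFS1 (chr2:99539773-99539832, minus strand) the first 30 bases of the probe that varied come first, followed by a steady probe (chr2:99542190-99542249, minus strand).
A_73_P107841: gacagttatgttggcacgatctcttgaagg
A_73_P411371: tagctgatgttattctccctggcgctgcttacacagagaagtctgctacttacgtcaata
For COX7C the first 30 bases of the probe that varied (chr7:87650659-87650718, plus strand) are shown.
A_73_P037516: atgcctcttctctgaaatatggaacatggt
For ATP5O the first 30 bases of the probe that varied (chr1:727975-728034, plus strand) are followed by the steady probe used for the gene, which the files place across chr1:726266-727550 on the plus strand.
A_73_108954: cgggagattctgtaaaagtgttgattttct
A_73_P100166: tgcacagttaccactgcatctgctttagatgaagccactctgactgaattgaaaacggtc
For UQCRB the files hold 3 tested probes. A probe on the minus strand (chr14:66190538-66190597) opens with 13 bases, in capitals, that match the repeat CCCTAA without a break.
A_73_P154247: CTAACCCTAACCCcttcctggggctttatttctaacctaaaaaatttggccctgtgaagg
The other UQCRB probes lie on the plus strand (chr14:66195038-66195097 and chr14:66195074-66195133) and share 24 positions. They differ there at 1 base, in capitals, which is A3G from the first to the second, counted from the 5′ end of the shared stretch.
A_73_P494163: ctAtggatacagctgttctcaagt
A_73_P040521: ctGtggatacagctgttctcaagt

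Transcripts of the 52 subunits were at nearly the same level in both groups. Levels are given as log2 signal minus the array's 75th percentile, a scale on which different probes cannot be ranked against each other. The groups were compared with limma, a linear model fitted over all 31108 probes, and p-values were adjusted over them (Benjamini-Hochberg). No member passed the threshold of 0.05, which 0% of all probes passed, and in this comparison no adjusted p, for a member or any other gene named below, was under 0.913. Of the 52 members 0 were under 0.05 before adjustment, against 1.91% of all probes. The mean was lower in the 5 mM cows for 28 members and higher for 24, against 46.9% lower among all probes, and this split depended on the scaling. It was 38 lower and 14 higher after quantile normalization, where 45.3% of all probes were lower, and 22 lower and 30 higher after a shift of array medians, where 39.3% of all probes were lower. The median log2 difference (5 mM minus 0 mM, as in every difference below) was -0.023 over the members and 0.021 over all probes. Of 72 second and further tested probes of the members, 42 had a difference of the same sign as the brightest probe of their gene. By complex, the median took both signs over the alternatives for complexes I (-0.20 to 0.070), III (-0.22 to 0.12), IV (-0.23 to 0.024) and V (-0.14 to 0.10), and stayed below 0 for complex II (-0.18 to -0.0076). A log2 difference of 1 is a 2-fold change, and the error after ± of a difference is limma's standard error. For 45 of the 52 members the 95% confidence interval of the difference lay within 1 of 0, so a 2-fold change lay outside it in both directions. The exceptions were NDUFA5, NDUFB10, NDUFS1, UQCRB, UQCRFS1, UQCRH and COX6A1.

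The members were also measured with little spread. All 52 were well above background on all 8 arrays. The SD over the 8 arrays had a median of 0.22 over the members and 0.35 over all tested probes, and 43 members lay below the latter. The difference was within 0.25 of 0 for 46 members, against 60.2% of all probes. These member values are from the brightest probe of each gene, whereas the tested probes include dimmer ones, some not well above background on all 8 arrays. The part of brightness in the smaller spread and differences was not tested. Only NDUFS1 differed at least 2-fold between the group means, and its values are set out with complex I. In bulk tissue, fewer cells of a type and less RNA per cell cannot be told apart.

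**Figure D1:**
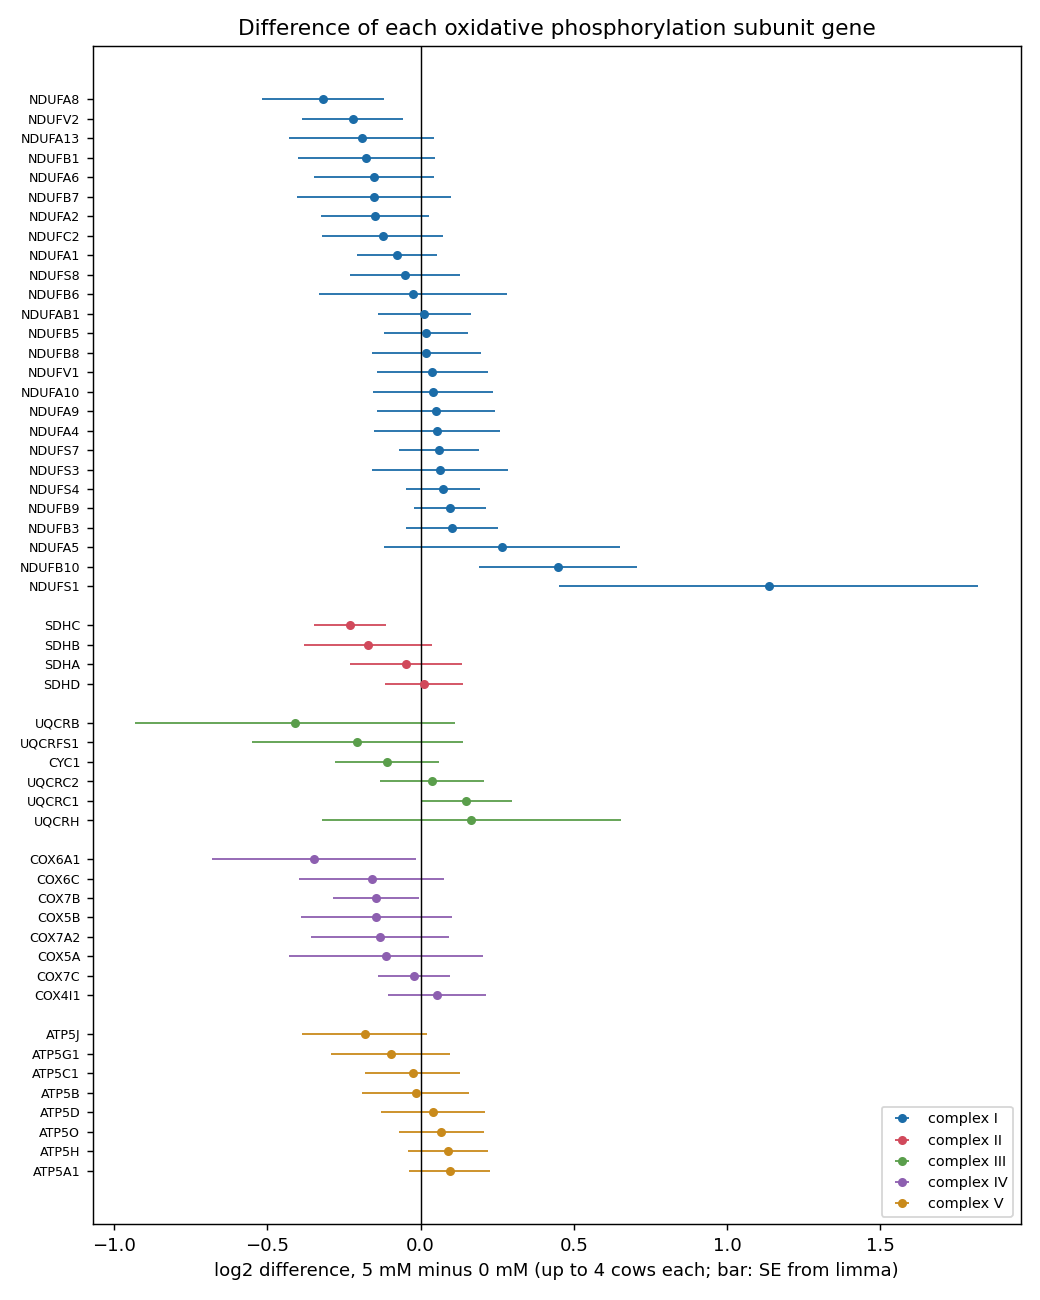
Log2 difference between the 5 mM and the 0 mM cows for each of the 52 genes, grouped by complex, with a bar of 1 standard error from limma. Apart from NDUFS1 at 1.14, every difference lies between -0.41 and 0.45, on both sides of 0.

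Signals differed between arrays in ways that touch these genes. Arrays lay on 3 slides, with replicate 1 of both groups on slide 1, 0 mM replicates 2 and 3 with 5 mM replicate 2 on slide 2, and 0 mM replicate 4 with 5 mM replicates 3 and 4 on slide 3. The 75th percentile of the processed signal ran from 1032 to 1456 intensity units, and 68.3% to 73.2% of probes were well above background. Of the endometrial marker lists, 8 of 8 smooth muscle genes (among them MYH11 and ACTA2) had array medians, relative to each gene's mean, of 1.36, 2.75 and 1.53 on 0 mM replicate 1 and 5 mM replicates 1 and 3, and of -1.80 to -0.84 on the other arrays. The 9 tested epithelial genes of 10 listed had a median of -2.79 on 5 mM replicate 1 and of 0.15 to 0.78 elsewhere. EPCAM, an epithelial surface protein, was at -1.26 there and at 4.33 to 4.83 elsewhere, well above background on all 8 arrays. The 10 leukocyte genes had medians of -0.23, 0.49, 0.29 and 0.38 in 0 mM replicates 1 to 4. In 5 mM replicates 1 to 4 they were -0.71, 0.044, -0.28 and -0.039. By group mean, 9 of 9 epithelial, 7 of 7 ciliated and 8 of 10 leukocyte genes were lower in the 5 mM cows. So were 2 of 6 stromal fibroblast, 2 of 4 endothelial and 0 of 8 smooth muscle genes, against 46.9% of all probes. None of these genes passed the adjusted threshold.

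The members' levels varied between arrays within both groups. The median over the 52 genes, each relative to its own mean, was -0.079, 0.081, 0.11 and 0.011 in 0 mM replicates 1 to 4. It was -0.14, 0.15, -0.16 and 0.12 in 5 mM replicates 1 to 4. The 3 lowest medians thus fell on the 3 arrays with high smooth muscle genes, 1 of a 0 mM cow and 2 of 5 mM cows. The lowest of a gene's 8 values was on 5 mM replicate 1 for 21 of 52 members (28.1% of all probes), and the highest was on that array for 6 of 52 (34% of all probes). The part of the tissue markers in these levels was not tested.

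**Figure D2:**
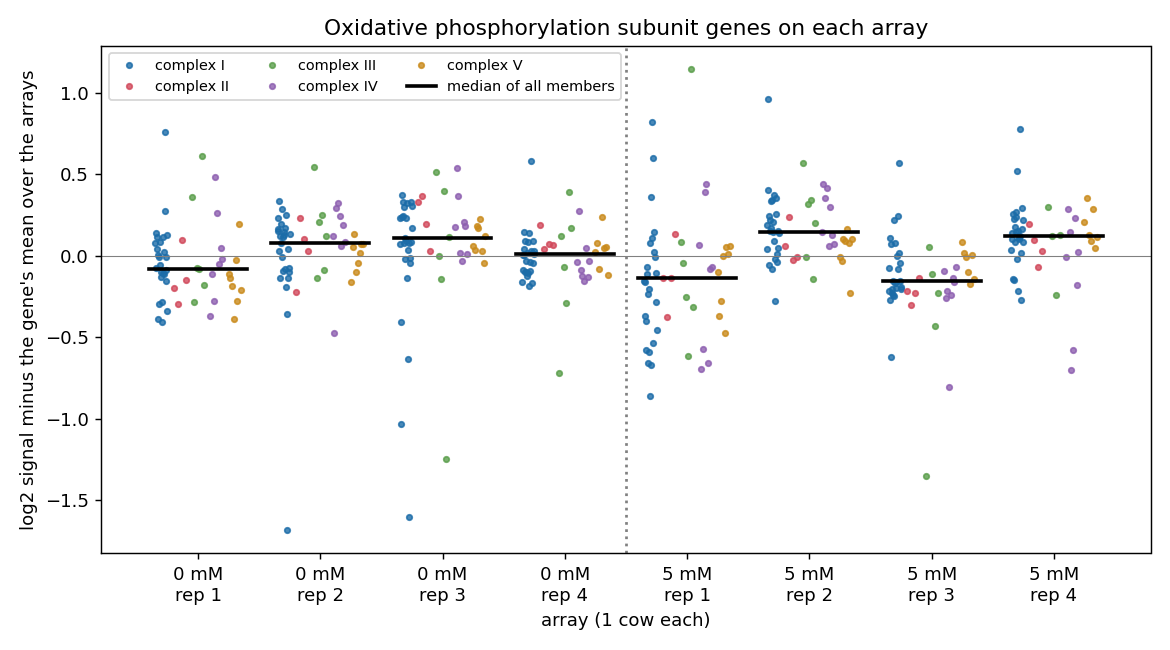
Each point is 1 of the 52 genes on 1 array, as log2 signal minus that gene's mean over the arrays, coloured by complex, and the black bar is the median of the genes. The bars lie between -0.16 and 0.15, and both groups hold arrays on either side of 0.

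Complex I, the entry point for electrons from NADH, had 11 members lower and 15 higher in the 5 mM cows, with a median difference of 0.018. The median was 0.018 also without NDUFA4, which carries a complex I symbol but is found in complex IV. NDUFV1, the subunit that binds NADH and the flavin, was at 3.80 ± 0.27 (SD, n = 4) in the 0 mM and 3.84 ± 0.20 in the 5 mM cows. Its partner NDUFV2, an iron-sulfur protein, was at 4.33, 4.34, 4.37 and 4.21 in 0 mM replicates 1 to 4 and at 3.75, 4.34, 4.0 and 4.29 in 5 mM replicates 1 to 4. The low NDUFV2 values were those of 5 mM replicates 1 and 3, and the groups overlapped (difference -0.22 ± 0.16). NDUFS3, NDUFS7 and NDUFS8, which lie along the path to ubiquinone, differed by 0.064, 0.060 and -0.051, each by less than its standard error.

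NDUFB10, NDUFS1 and NDUFA8, in that order, had the lowest p of the complex I members. NDUFB10 and NDUFA8 are accessory subunits, and NDUFS1 is set out below. NDUFB10 was at 3.83, 3.61, 3.17 and 3.71 in the 0 mM and at 4.62, 3.53, 4.05 and 3.91 in the 5 mM cows. Its highest value was that of 5 mM replicate 1, and 5 mM replicate 2 lay below 3 of the 4 control values (difference 0.45 ± 0.26). NDUFA8 was at 2.21, 2.32, 2.58 and 2.35 in the 0 mM and at 2.09, 2.45, 1.59 and 2.05 in the 5 mM cows. Its difference of -0.32 ± 0.20 came with a lowest value on 5 mM replicate 3, and a second NDUFA8 probe differed by 0.011. NDUFB9, another accessory subunit, had the smallest SD of the complex, 0.079, with values from 2.97 to 3.18 over all 8 cows.

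NDUFS1 encodes the large iron-sulfur subunit of complex I. Its brightest probe was at 2.15, -0.29, -0.21 and 1.98 in 0 mM replicates 1 to 4 and at 2.0, 1.97 and 2.17 in 5 mM replicates 1, 3 and 4. The spot of 5 mM replicate 2 carried a scanner outlier mark and was left out. With it included its value was -0.41, and all 3 low values then belonged to the 3 arrays of slide 2. The fitted difference was 1.14 ± 0.68 without the marked spot, 0.52 with it and -0.016 with the slide as a block. Within slide 1 it was -0.15 and within slide 3 it was 0.089. The slide means of this probe were 2.08, -0.25 and 2.04, and it was the only one of the 52 members to pass an adjusted p of 0.05 in a limma test of slide with the group in the model (adjusted p = 0.0212), which 1% of 31045 probes passed. The other 4 NDUFS1 probes differed between the groups by -0.25 to -0.089. The steady probe printed above stayed between 0.10 and 0.65 on all 8 arrays. A difference of at least 2-fold was thus seen with 1 of the 5 NDUFS1 probes, and not within slides 1 or 3.

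Complex II, succinate dehydrogenase, is also an enzyme of the citric acid cycle, and all its subunits are nuclear. Its median difference was -0.11, with 3 genes lower and 1 higher. SDHA, which binds the flavin and succinate, was at 4.89 ± 0.28 (SD, n = 4) and 4.85 ± 0.19 in the 0 mM and 5 mM cows. SDHB, the iron-sulfur subunit, was at 1.70 ± 0.29 and 1.53 ± 0.30 in the same order. SDHD, a membrane anchor, differed by 0.010.

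SDHC, the other membrane anchor (chr3:9036417-9036476, minus strand), was the only member whose groups did not overlap. It was at 4.06, 4.07, 4.16 and 4.04 in 0 mM replicates 1 to 4 and at 3.83, 3.94, 3.74 and 3.89 in 5 mM replicates 1 to 4. Every 5 mM cow lay below every 0 mM cow, but the gap was small, with means of 4.08 ± 0.054 and 3.85 ± 0.087 (SD, n = 4). The difference of -0.23 ± 0.12 did not pass the test, and a share of 1.5% of all probes did not overlap in either direction, so that 1 of 52 is near the background. The other SDHC probes differed by -0.30 and -0.32, and within slides 1, 2 and 3 the brightest differed by -0.23, -0.17 and -0.22. Over all alternatives the difference ranged from -0.29 to -0.17.

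Complex III passes electrons from ubiquinol to cytochrome c. Of its 6 members 3 were lower and 3 higher, with a median of -0.036. CYC1, the cytochrome c1 subunit, was at 4.52 ± 0.16 (SD, n = 4) in the 0 mM and 4.41 ± 0.25 in the 5 mM cows. UQCRC1, a core protein of the complex, had its lowest p, at 3.62 ± 0.18 and 3.77 ± 0.15 (difference 0.15 ± 0.15). UQCRFS1, the Rieske iron-sulfur protein, had 2 of its 4 values in the 5 mM group marked and left out, and the rest, 2.59 and 3.55, spanned most of the 0 mM range of 2.92 to 3.61. UQCRH, the hinge protein, was read by 1 probe that ran from 3.02 on 0 mM replicate 3 to 5.42 on 5 mM replicate 1, and its difference of 0.17 ± 0.49 was within that spread.

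The 3 tested probes that carry the symbol UQCRB, the ubiquinone-binding protein of complex III, gave different pictures. The brightest was at 2.22, 2.41, 2.38 and 1.15 in 0 mM replicates 1 to 4 and at 1.95, 2.43 and 0.51 in 5 mM replicates 1 to 3, with replicate 4 marked (0.72 if included). The low values were the arrays of slide 3 in both groups, with slide means of 2.09, 2.41 and 0.83 (adjusted p = 0.103 in the limma test of slide). The overlapping probe stayed between -1.12 and -0.47 on all arrays. The third, with the repeat at its start, is placed on the minus strand, opposite to the other UQCRB probes. Whether it reads the UQCRB transcript was not tested. It was at -1.74, -4.48, -2.28 and -2.79 in the 0 mM and at -0.53, -0.98, -1.18 and -0.58 in the 5 mM cows. All 4 values of the 5 mM group were higher than those of the 0 mM group, as in 0.993% of all probes. Its difference of 2.0 ± 0.54 made it the only one of 124 member probes under 0.05 before adjustment, against 1.91% of all probes. It is also the only member probe with a run of at least 8 bases of this repeat on either strand, which 0.395% of tested probes hold. The brightest UQCRB probe differed by -0.41 ± 0.52 and the overlapping one by -0.13, both opposite in sign to it.

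**Figure D3:**
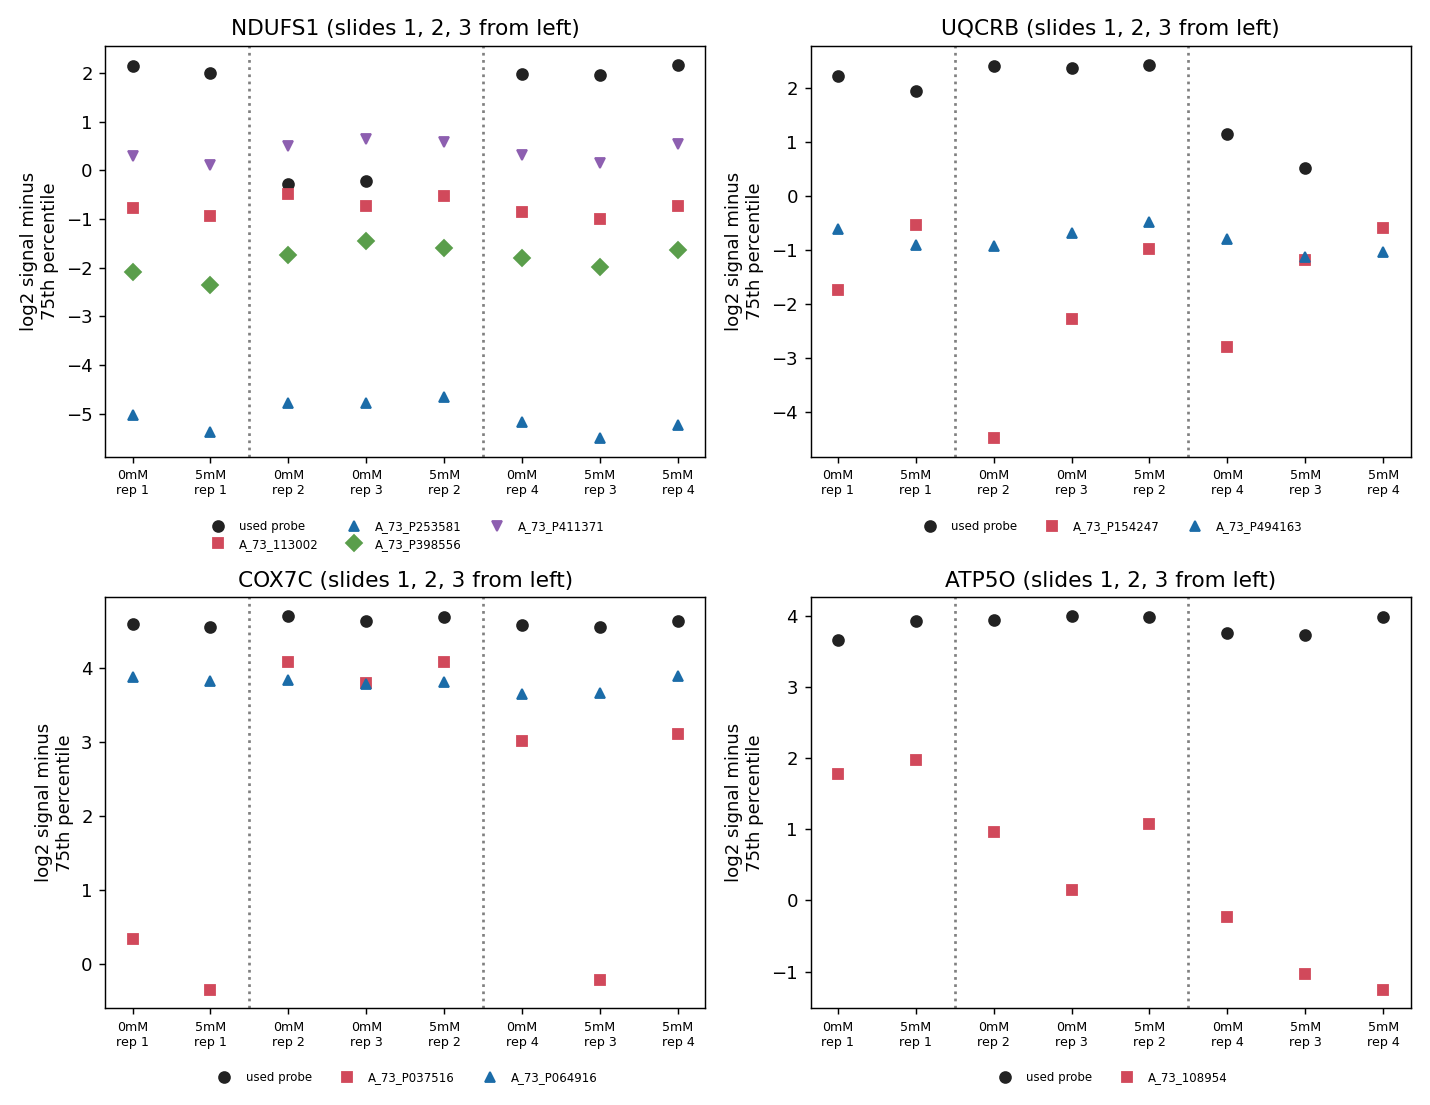
Log2 signal minus the array's 75th percentile of every tested probe of NDUFS1, UQCRB, COX7C and ATP5O, with the arrays ordered by slide and the slides parted by dotted lines. A missing point is a spot left out for a scanner mark. In each panel 1 or more probes step between arrays while another stays level, such as COX7C at 4.54 to 4.69.

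Complex IV, cytochrome c oxidase, had 7 members lower and 1 higher, with a median of -0.14. Without 5 mM replicate 1 the median was 0.010, and within slides 1, 2 and 3 it was -0.11, 0.024 and -0.028. COX4I1, a regulatory subunit, was the 1 higher, at 5.38 ± 0.25 (SD, n = 4) and 5.44 ± 0.10 in the 0 mM and 5 mM cows. COX5A was at 3.25 ± 0.44 and 3.14 ± 0.52, and COX5B, the zinc-binding subunit, at 4.23 ± 0.31 and 4.08 ± 0.41. COX6A1 had the lowest p of the complex, with 2.91, 2.75, 2.44 and 2.30 in 0 mM replicates 1 to 4 and 2.81, 2.84, 1.62 and 1.73 in 5 mM replicates 1 to 4. The low values came from slide 3, where the 0 mM array was also the lowest of its group (difference -0.35 ± 0.33, and -0.16 with the slide as a block). COX6C followed the same order of slides, with means of 3.23, 2.97 and 2.56.

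COX7C was the steadiest of the 52 genes. Its brightest probe had an SD of 0.058 over the 8 cows and differed by -0.021 ± 0.12, and a second probe stayed between 3.65 and 3.89. The COX7C probe printed above was at 0.34, 4.07, 3.79 and 3.01 in 0 mM replicates 1 to 4 and at -0.34, 4.07, -0.21 and 3.1 in 5 mM replicates 1 to 4. Its range was 21.3-fold. The 3 arrays on which it was low, 0 mM replicate 1 and 5 mM replicates 1 and 3, were those with high smooth muscle genes. The part of smooth muscle in this signal was not tested. Of the 124 member probes 4 had an SD over 1, against 10.9% of all tested probes, and they were 1 probe each of NDUFS1, UQCRB, COX7C and ATP5O.

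Complex V, the ATP synthase, had 4 members lower and 4 higher, with a median of 0.012, and the narrowest span of differences of the complexes with over 4 members (-0.18 to 0.095). ATP5A1 and ATP5B encode the alpha and beta subunits that form the catalytic head. ATP5A1 was at 5.71 ± 0.11 (SD, n = 4) in the 0 mM and 5.81 ± 0.13 in the 5 mM cows, and ATP5B at 5.26 ± 0.10 and 5.24 ± 0.30. ATP5C1, the gamma subunit of the turning shaft, differed by -0.026 ± 0.16. ATP5H, subunit d of the stalk, had the smallest SD over the 8 cows in the complex, 0.11, with values from 4.41 to 4.77. ATP5G1, of the membrane ring, had the largest SD, 0.25, with values from 3.90 on 5 mM replicate 1 to 4.67 on 5 mM replicate 4. ATP5J, coupling factor F6, had the lowest p of the complex (difference -0.18 ± 0.20) but lacked 3 of its 8 values for scanner marks.

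ATP5O, which joins the stalk to the catalytic head, was at 3.67 to 4.0 with its brightest probe. Its second probe was at 1.77, 0.96, 0.14 and -0.23 in 0 mM replicates 1 to 4 and at 1.98, 1.08, -1.04 and -1.25 in 5 mM replicates 1 to 4. It was ordered by slide, with means of 1.88, 0.73 and -0.84 (adjusted p = 0.1 in the limma test of slide), and its values overlapped between the groups. Before adjustment 8 of the 52 members were under 0.05 for slide, against 16.7% of all probes, a share near that background.

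The other nuclear subunits moved little as well. Of 12 further complex I subunits 8 were lower (median -0.031), and of 3 in complex III 2 were lower (-0.086). Of 3 genes listed with complex IV 2 were lower (-0.098). Of 11 listed with complex V, its inhibitor included, 6 were lower (-0.0035). None of all these genes was under 0.05 before adjustment. NDUFB4, an accessory subunit of complex I, was at 3.33, 3.44, 3.38 and 3.11 in the 0 mM and at 3.64, 3.47, 3.61 and 3.44 in the 5 mM cows, so that the groups did not overlap but met at 3.44 (difference 0.23 ± 0.13). ATP5S, named coupling factor B, was at 0.45, 0.45, 0.39 and 0.45 in the 0 mM and at 0.79, 0.54, 0.90 and 0.47 in the 5 mM cows, again without overlap (difference 0.24 ± 0.14). These were the only 2 of these 29 genes without overlap, both higher in the 5 mM group, as were 0.993% of all probes. UQCR10, a small subunit of complex III, differed by -0.31 ± 0.19 and COX7A2L, which helps to join complexes III and IV, by 0.13 ± 0.15. Of the tissue isoforms of complex IV 4 of 6 were tested, and 3 were lower (median -0.081). COX8B, a form of heart and skeletal muscle, had the largest difference of these, -0.62 ± 0.41, but it ran from -0.83 without 5 mM replicate 2 to -0.33 without 0 mM replicate 3, and from -1.35 within slide 3 to 0.31 within slide 1.

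Most subunits encoded in mitochondrial DNA had a higher mean in the 5 mM cows, by little. Of 13 listed genes 12 were tested, and 11 had the higher mean, with a median difference of 0.17, against 53.1% of all probes. None was under 0.05 before adjustment, and the lowest p was that of ND2, a membrane subunit of complex I, at -0.60, -0.22, -0.77 and -0.28 in 0 mM replicates 1 to 4 and at -0.12, -0.19, -0.35 and -0.10 in 5 mM replicates 1 to 4 (difference 0.28 ± 0.17). ND5 was the 1 lower, by -0.098. Much of the shift lay on 1 array, since 9 of the 12 genes had their highest value on 5 mM replicate 1, where 34% of all probes did. The array medians of the 12 genes were 0.50 on that array and -0.20 to 0.10 on the other 7. Without it the median difference was 0.032, and within slides 1, 2 and 3 it was 0.47, 0.045 and 0.029. That array also had the low epithelial and high smooth muscle levels given above. Their part in the mitochondrial transcripts was not tested. COX1, the catalytic subunit of complex IV, was lower on the 3 arrays of slide 2 (4.96 to 5.03) than on the others (5.43 to 6.17).

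**Figure D4:**
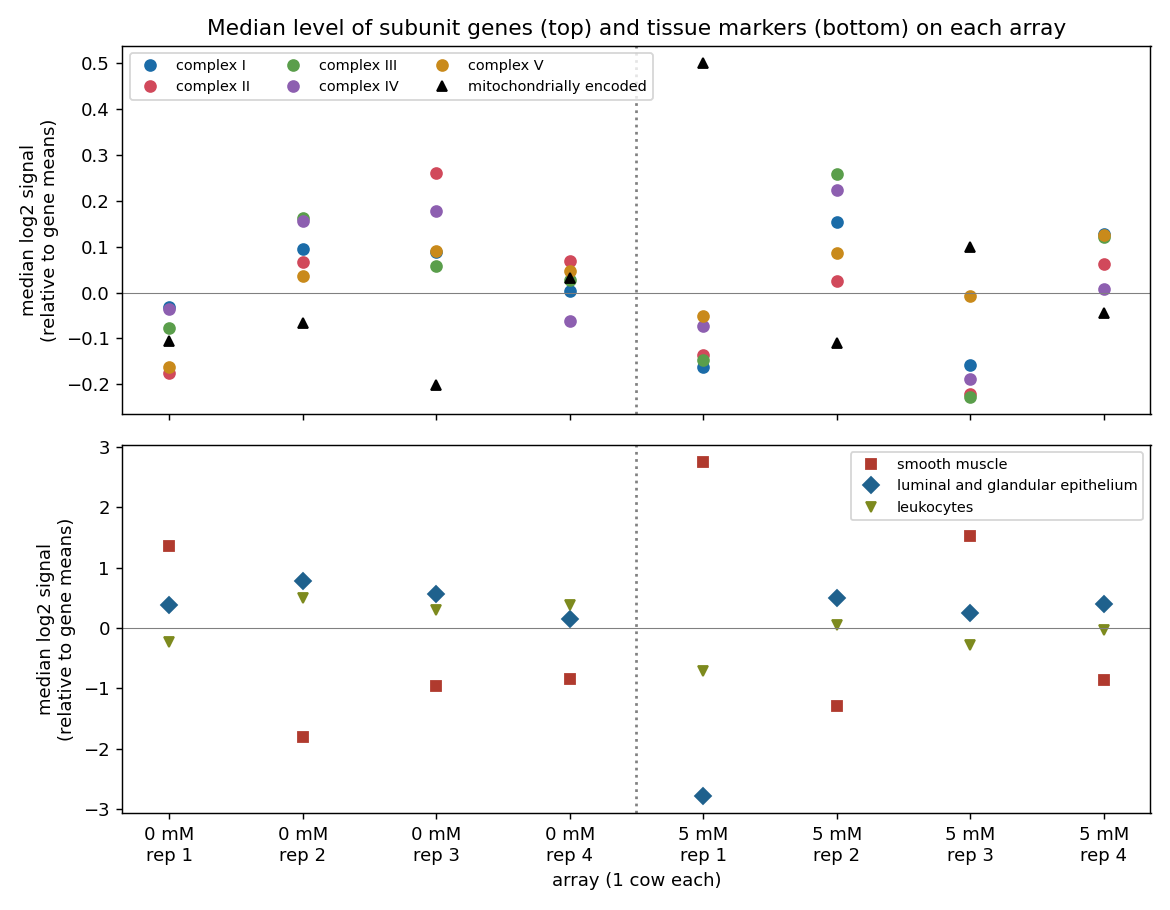
Median log2 signal per array, relative to each gene's mean, of the 5 complexes and the mitochondrially encoded subunits (top) and of 3 marker lists of endometrial tissue (bottom). The mitochondrially encoded genes stand at 0.50 on 5 mM replicate 1, where the epithelial genes are at -2.79 and the smooth muscle genes at 2.75.

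Among the genes around the complexes no adjusted call was made either. Of 41 assembly factors 34 were tested, with 21 lower (median -0.047). SCO2, a copper chaperone for complex IV, was at -1.57, -1.81, -2.87 and -2.46 in the 0 mM and at -4.0, -2.58, -2.91 and -2.55 in the 5 mM cows. Its lowest value was that of 5 mM replicate 1, and the groups overlapped (difference -0.83 ± 0.41). Of 15 electron carriers and regulators of mitochondrial biogenesis 14 were tested, with a median of 0.024. NRF1, a transcription factor that drives many nuclear genes of the chain, was at -5.14, -5.35, -5.62 and -5.26 in the 0 mM and at -4.78, -5.06, -4.95 and -5.12 in the 5 mM cows. The groups did not overlap, with the 5 mM group higher, as in 0.993% of all probes. The difference of 0.36 ± 0.16 made NRF1 the 1 gene of the pathway lists under 0.05 before adjustment, against 1.91% of all probes. That call does not survive adjustment over all probes. The pathway lists held 12, 3, 3, 11, 4, 12, 34, 14 and 17 tested genes. CYCS, cytochrome c itself, differed by -0.33 ± 0.21 and PPARGC1A, a coactivator of NRF1, by 0.44 ± 0.43, with its highest value of 2.79 on 5 mM replicate 1.

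In the citric acid cycle, which supplies NADH and succinate to the chain, 12 of 17 genes were lower, with a median of -0.11. IDH3G, a subunit of NAD-dependent isocitrate dehydrogenase, had the lowest p, at 0.97 ± 0.069 (SD, n = 4) and 1.31 ± 0.36 (difference 0.34 ± 0.19). Its highest values were those of 5 mM replicates 1 and 3. IDH2, the NADP-dependent enzyme of mitochondria, was lowest on the same arrays, at 3.0 and 4.01, against 4.37 to 5.08 on the rest. The smooth muscle genes were high on both of these arrays and on 0 mM replicate 1, where IDH2 lay within the range of the rest. The part of smooth muscle in these values was not tested.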

How the data were processed

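Endometrial RNA of 8 cows was labelled with Cy3 and hybridised to one-colour Agilent arrays of design 023647, per the labels' protocols and the file headers. The deposited files hold spot intensities from which Feature Extraction had subtracted background and spatial trends, per the file headers, which name version 11.5.1.1 where the submitters' processing notes name 10.5.1.1. The series' value table holds log2 values as deposited, whose scale, centring and direction were those of log2 intensities after a shift by the 75th percentile of the array and centring by probe on the median (r of 0.99996 or more over probes). In the order of 0 mM replicates 1 to 4 its columns had medians of -0.016, -0.023, 0.00088 and -0.0062. The medians of 5 mM replicates 1 to 4 were 0.13, -0.0049, -0.011 and 0.013. It served only as an alternative.

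Here spots of controls, or marked as outliers by the scanner software, were dropped, log2 processed intensities were averaged per probe, and the array's 75th percentile was subtracted. Probes well above background on at least 4 of 8 arrays were tested, 31108 in all with 461 missing values, 9 of them in 6 members. The groups were fitted with lmFit and eBayes (limma 3.58.1, R 4.3.3), two-sided and without covariates. Precision is limited by the 4 arrays of each group. The fit was also run on simulated arrays with independent noise for each probe and added differences. That simulation held no slide or tissue effects, so it cannot speak to them. Members were matched by the files' symbols, and 9 genes of the other lists through RefSeq accessions (ARS-UCD2.0). No genome of the array's build was used here.

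The members and lists were chosen with earlier results of these data known. Named were core subunits, the lowest p of each complex and list, the largest and smallest SD, and genes without overlap. NDUFA5, UQCRH, COX6C, ATP5O, ND5, COX1, CYCS, PPARGC1A and IDH2 were added after their values were seen. Alternatives were quantile normalization, a median shift, normexp (offset 50), other filters, trend and robust eBayes, array weights, the value table, marked spots included, slide and replicate blocks, single slides, the mean over probes, and leaving out each array.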

Additional observations from a re-analysis of the deposited data

Results flagged for a closer look

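A sample stood apart from the other 3 of its group in 7 of 96 groups examined (Dixon's test at the 95% level, which chance passes in about 1 of 20 groups), and all 7 were in the 0 mM group. On 0 mM replicate 1, SDHD was at 2.83 against 3.02 to 3.05 in the other 0 mM cows, CYC1 at 4.28 against 4.58 to 4.63, ATP5H at 4.41 against 4.71 to 4.74, and UQCR10 at 3.56 against 3.96 to 3.99. That array is also 1 of the 3 with high smooth muscle genes, whose part in these values was not tested. On 0 mM replicate 3, NDUFS8 was at 2.66 against 2.24 to 2.29 and ATP5S at 0.39 against 0.45 to 0.45. UQCRB was at 1.15 on 0 mM replicate 4, which lies on slide 3, against 2.22 to 2.41.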

How the results depend on the processing

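No probe passed the adjusted threshold under any of 20 alternatives. Members under 0.05 before adjustment numbered 1 with quantile normalization (SDHC), 1 with trend and robust eBayes (SDHC), and 0 to 2 when 1 array was left out (NDUFS1 without 0 mM replicate 1, NDUFA8 and NDUFB10 without 5 mM replicate 2). The count of lower members was 38 with quantile normalization, 22 with a median shift, 17 within slide 2, and 20 to 37 when 1 array was left out (20 without 5 mM replicate 1, 37 without 5 mM replicate 2, 36 without 0 mM replicate 1). Median differences that moved by more than the spread between replicates were, within slide 1, -0.20 for complex I, 0.16 for the other complex IV subunits, 0.41 for the tissue isoforms and 0.47 for mitochondrially encoded genes. Within slide 2 they were 0.024 for complex IV and 0.095 for its other subunits. Within slide 3 they were -0.22 for complex III, 0.15 for the other complex V subunits, -0.45 for the tissue isoforms and -0.073 for carriers and regulators. With the mean over probes they were -0.14 for complex V and 0.15 for the other complex IV subunits, which were at 0.037 with normexp. Leaving out 1 array gave -0.19 to 0.048 for the other complex IV subunits, -0.053 to 0.13 for the other complex V subunits and -0.045 to 0.014 for carriers and regulators. The causes were not tested.

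Probes under 0.05 before adjustment numbered 595, and 1221 with the replicate block, 1026 with the slide block, and 1067 when no filter was set. Of the 5 mM arrays, leaving out replicate 2 gave 1528, replicate 4 gave 1065 and replicate 3 gave 376. Means over a gene's probes gave 344 among 17966. With the replicate number as a block 0 probes passed the adjusted threshold and 29 of 52 members were lower. The numbers were taken as names, and whether they mark pairs was not settled. Deviations of same-numbered arrays correlated at 0.40, 0.36, -0.30 and 0.31 for replicates 1 to 4. The highest correlation of each 0 mM array with a 5 mM array of another number was 0.33, 0.097, 0.30 and -0.071. Same-numbered arrays of replicates 1, 2 and 4 shared a slide, so number and slide cannot be told apart there. The median of all probes moved from 0.021 to 0.076 with a median shift and to 0.10 within slide 1.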
